A study of Mus musculus with 6 samples.

Results

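Small leucine-rich proteoglycans are secreted proteins of the connective tissue matrix, and the 10 genes of this family described here were chosen by name: Dcn, Bgn, Lum, Fmod, Ogn, Omd, Prelp, Aspn, Podn and Kera. Each gene was found as 1 row among the 22162 genes of the deposited table. The rule used family names and no measured value, although earlier results of these data were known when it was set. The comparison was between senescent and non-senescent mouse skin fibroblasts (MSFs) from the FASST mouse, and it measured how expression differed after senescence was induced. FASST mice carry a tamoxifen (TAM)-inducible Cre-ERT2 under the pro-alpha 2(I) collagen promoter and a p27Kip1 allele behind a floxed stop cassette at the ROSA26 locus. The MSF line was made from the dorsal skin of a female FASST mouse bred to an FVB background, and the labels give the strain as FVB/N. The cells of both groups therefore share the alleles, the source and the culture at 3% oxygen, 5% carbon dioxide and 10% fetal bovine serum, and the age of the mouse is not given in the sources used here. The 3 TAM libraries came from cells given 10 µM TAM for 48 h, and the 3 EtOH libraries from cells given the ethanol vehicle. TAM and EtOH are used here as the names of the libraries as labelled, senescent and non-senescent respectively. Cells without the Cre or the allele are not among these libraries, so the effects of TAM itself and of the allele cannot be told apart.

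The proteins of this family share a core of leucine-rich repeats that binds collagen fibrils and limits their thickness, and many members carry chondroitin, dermatan or keratan sulfate chains. Decorin and biglycan, with asporin, form class I of the family. Lumican, fibromodulin, osteomodulin, PRELP and keratocan form class II, osteoglycin belongs to class III and podocan to class V. In skin, fibroblasts of the dermis are the main source of decorin, and soluble forms of decorin and biglycan bind growth factors, receptor tyrosine kinases and Toll-like receptors.

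The libraries held 14952367 to 17314953 normalized counts, and 11877 genes reached 1 c.p.m., taken as 16.2 normalized counts, in at least 3 of the 6 libraries. All 10 family members were among them. Replicate 2 stood apart in both groups. The median absolute log2 distance of a library from the other two of its group was 0.384 for EtOH replicate 2 and 0.397 for TAM replicate 2, against 0.242 to 0.287 for the other 4 libraries. Cdkn1b, the mouse p27Kip1 gene, had 1427, 3074 and 1853 normalized counts in EtOH replicates 1, 2 and 3 and 1699, 1520 and 1630 in the TAM replicates, and the sources used here do not say whether transgene reads were counted on it. All 10 fibroblast markers examined passed the filter. Krt1, Emr1 and Cd3e, which mark keratinocytes, macrophages and T cells, were listed at 0 in all 6 libraries. Other markers of the same lists had counts, and 2 of 7 keratinocyte and 3 of 7 leukocyte markers passed the filter. Among these, Krt10 had 40.99 to 59.12 normalized counts and Cd68 49.55 to 352.25 over the 6 libraries. Lyz2 had 35.25 to 62.87 in EtOH and 103.07 to 159.48 in TAM, and Csf1r 73.41 to 75.68 in EtOH and 90.58 to 226.21 in TAM. Trp63 had 24.85 to 25.78 in EtOH and 2.5 to 7.15 in TAM, so it passed only through the EtOH libraries. By the tests described below, 0 of these markers were called. Neither the labels nor the paper say that replicates were separate cultures, so p-values measure the spread between these libraries only.

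The family divided into members that were low in the TAM libraries and members that were not. The fitted log2 fold change, TAM minus EtOH, was below −2 for 5 members, Ogn, Omd, Lum, Dcn and Aspn, compared with 0.808% of all genes tested. The group means of these 5 differed between 3.70-fold for Aspn and 6.28-fold for Ogn. Podn had the highest value in the family, with a log2 fold change of 1.38. Bgn, Prelp, Fmod and Kera had log2 fold changes between −0.92 and 0.44. The median over the 10 members was −1.48, against −0.03 over all genes tested. Without TAM replicate 2 the median of the members was −0.71, and without replicate 2 of both groups it was −1.02.

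By limma's moderated test with Benjamini-Hochberg (BH) adjustment over all genes tested, 0 of the 10 members had an adjusted p under 0.05, where 0.244% of all genes were called. At an unadjusted p under 0.05 the same fit had 5 members lower, against 6.7% of all genes, and 1 member, Podn, higher, against 6.67%. Libraries with the same replicate number deviated together, and in a fit with the replicate number as a block 1.62% of all genes were called. Of the members 3, Ogn, Omd and Aspn, were lower in that fit, where 0.615% of all genes were lower. At an unadjusted p under 0.05 the blocked fit had 5 members lower and 1 higher, against 8.32 and 8.64% of all genes. In 4 members, Ogn, Lum, Dcn and Aspn, the 3 TAM values lay entirely below the 3 EtOH values, as did those of 11.4% of all genes, and in 0 members they lay entirely above, against 9.19%. In 5 members the TAM library was the lower in all 3 same-numbered pairs, against 23.6% of all genes. An exact two-sided permutation test of 3 against 3 libraries cannot go below p = 0.1.

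**Figure D1:**
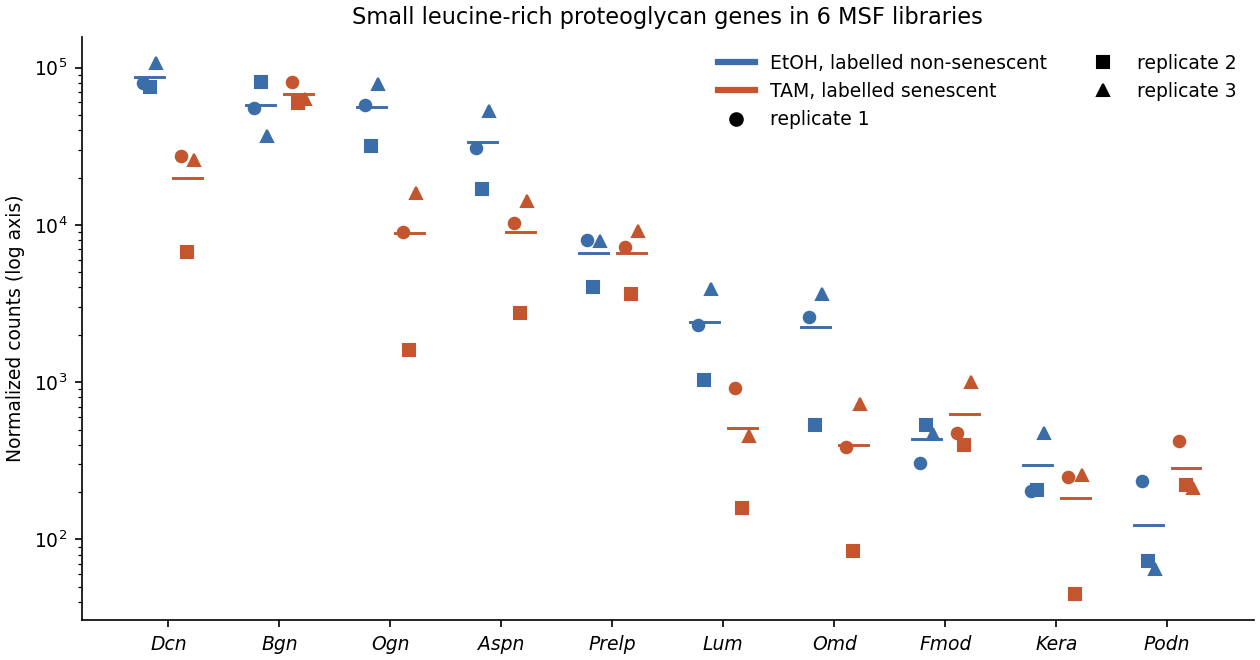
Normalized counts of the 10 genes in each of the 6 libraries, on a log axis, with the symbol giving the replicate and the horizontal line the group mean. The TAM values of Dcn, Ogn, Aspn and Lum all lie below the EtOH values, Bgn and Prelp overlap between the groups, and TAM replicate 2 holds the lowest TAM value of 9 of the 10 genes.

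Aspn, Omd and Ogn, which lie side by side on chromosome 13, were the members called with the replicate block. Their promoters are shown with those of Bgn and Podn, members that were not lower in the TAM libraries. Each line gives the 100 bases before the transcription start, 5′ to 3′ on the strand of the gene, from RefSeq on the GRCm38.p6 assembly. Capitals mark the TATA box letters TATAAA, the letters CCAAT of the box named after them and the GC box letters GGGCGG, each on either strand.
Aspn (chr13:49544343-49544442, plus strand): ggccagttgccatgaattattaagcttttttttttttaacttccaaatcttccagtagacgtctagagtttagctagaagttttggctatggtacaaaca
Omd (chr13:49582362-49582461, plus strand): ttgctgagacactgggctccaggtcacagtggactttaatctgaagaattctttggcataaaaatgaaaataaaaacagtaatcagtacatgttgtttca
Ogn (chr13:49607915-49608014, plus strand): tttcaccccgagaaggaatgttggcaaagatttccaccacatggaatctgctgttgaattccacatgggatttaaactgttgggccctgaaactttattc
Bgn (chrX:73483501-73483600, plus strand): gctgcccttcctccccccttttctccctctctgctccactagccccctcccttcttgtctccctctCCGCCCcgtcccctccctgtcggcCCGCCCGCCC
Podn (chr4:108031955-108032054, minus strand): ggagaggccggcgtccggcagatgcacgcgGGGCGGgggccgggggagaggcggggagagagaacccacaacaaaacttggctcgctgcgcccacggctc
None of these stretches of Aspn, Omd and Ogn held a match. Those of Bgn and of this start of Podn held GC boxes, and in Bgn 2 of the 3 matches overlap each other. Fmod, Prelp and another start of Podn, not shown and also of members that were not low in TAM, held no GC box. A match is a string of letters and says nothing of binding.

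Ogn encodes osteoglycin, also called mimecan, a class III member that affects the thickness of collagen fibrils. The gene (ENSMUSG00000021390) lies on chromosome 13 of mm9 from 49703440 to 49719869, on the plus strand. It had 57701, 31771 and 78157 normalized counts in EtOH replicates 1, 2 and 3 and 9051, 1613 and 16021 in TAM replicates 1, 2 and 3. All TAM values were below all EtOH values, and replicate 2 was the lowest library of both groups. The group mean was 55876 ± 23247 (SD, n = 3) in EtOH and 8895 ± 7205 (SD, n = 3) in TAM, 6.28-fold lower. The log2 fold change was −3.09 with a standard error (SE) of 0.82 and a 95% interval of −5.01 to −1.16, and limma gave a BH-adjusted p of 0.201. With the replicate block the SE was 0.43 and the adjusted p 0.0461. The log2 differences within the pairs of replicates 1, 2 and 3 were −2.67, −4.30 and −2.29. Without replicate 2 of both groups the log2 fold change was −2.48.

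Aspn encodes asporin, a class I member that has an aspartate-rich stretch, and the protein binds collagen and TGFβ. The gene (ENSMUSG00000021388; chromosome 13, 49639812 to 49662926, plus strand) had 30798, 16896 and 52704 normalized counts in the EtOH replicates and 10217, 2752 and 14185 in the TAM replicates. The groups did not overlap, and TAM replicate 3, the highest of its group, was nearest to EtOH replicate 2, the lowest of the other. The means were 33466 ± 18053 and 9051 ± 5805 (SD, n = 3 each), a 3.70-fold difference. The fitted log2 difference of −2.03 had an SE of 0.67 (BH-adjusted p = 0.269), and an SE of 0.27 (BH-adjusted p = 0.0429) in the blocked fit. The pairs gave log2 differences of −1.59, −2.62 and −1.89. Leaving out TAM replicate 2 gave a log2 fold change of −1.32, and leaving out replicate 2 of both groups −1.74.

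Omd encodes osteomodulin, a class II keratan sulfate proteoglycan best known from bone and dentin. The gene (ENSMUSG00000048368; chromosome 13, 49678135 to 49687978, plus strand) had 2583, 533 and 3626 normalized counts in the EtOH replicates and 385, 84.6 and 723 in the TAM replicates. The groups overlapped, because EtOH replicate 2 was below TAM replicate 3. Within each same-numbered pair the TAM value was the lower by a similar amount, with log2 differences of −2.74, −2.64 and −2.32. The log2 fold change was −2.57, with an SE of 0.94 (BH-adjusted p = 0.305), and the blocked fit gave an SE of 0.17 (BH-adjusted p = 0.0147). The means were 2247 ± 1573 and 397 ± 319 (SD, n = 3 each). The log2 fold change was −1.70 without TAM replicate 2, −3.41 without EtOH replicate 2 and −2.53 without both.

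Dcn encodes decorin, a class I proteoglycan that binds collagen I fibrils, TGFβ and the EGF and MET receptors. The gene (ENSMUSG00000019929; chromosome 10, 96942245 to 96980777, plus strand) had 79944, 75763 and 106514 normalized counts in the EtOH replicates and 27277, 6712 and 25738 in the TAM replicates. Every TAM value was below every EtOH value, and TAM replicate 2 was well below the other TAM libraries. The mean was 87407 ± 16678 (SD, n = 3) in EtOH and 19909 ± 11455 (SD, n = 3) in TAM, 4.39-fold lower. Dcn did not pass the test in either fit. Its log2 fold change was −2.37 (SE 0.56, 95% interval −3.67 to −1.06, BH-adjusted p = 0.163), and with the replicate block the SE was 0.43 (adjusted p = 0.0811). The pairs gave −1.55, −3.50 and −2.05, and without TAM replicate 2 the log2 fold change was −1.71.

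Lum encodes lumican, a class II keratan sulfate proteoglycan of cornea and dermis, and lies downstream of Dcn (ENSMUSG00000036446; chromosome 10, 97028135 to 97035337, plus strand). Its normalized counts were 2298, 1039 and 3921 in the EtOH replicates and 919, 158 and 452 in the TAM replicates. The highest TAM value, replicate 1, was close to the lowest EtOH value, replicate 2, and the groups did not overlap. The log2 fold change of −2.38 had an SE of 0.70 (BH-adjusted p = 0.236), and with the block 0.37 (adjusted p = 0.0570), so that Lum did not pass either fit. The pairs gave −1.32, −2.71 and −3.11.

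Kera, the third gene on this stretch (ENSMUSG00000019932; chromosome 10, 97069817 to 97076322, plus strand), encodes keratocan, a class II proteoglycan known from the cornea. It had 204, 207 and 478 normalized counts in the EtOH replicates and 249, 45.2 and 259 in the TAM replicates. The groups overlapped, and TAM replicate 2 was the only TAM value below the EtOH range. The log2 fold change of Kera was −0.92 (SE 0.71, BH-adjusted p = 0.624), and −0.10 without TAM replicate 2. Its pairs differed in direction, with log2 differences of 0.29, −2.17 and −0.88.

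Bgn encodes biglycan, the class I relative of decorin, whose soluble form binds Toll-like receptors. The gene (ENSMUSG00000031375; chromosome X, 70728941 to 70741272, plus strand) had 55286, 80691 and 36958 normalized counts in the EtOH replicates and 80407, 59276 and 63082 in the TAM replicates. The TAM values lay inside the EtOH range. The means were 57645 ± 21962 and 67588 ± 11264 (SD, n = 3 each). Bgn had a log2 fold change of 0.29 (SE 0.37, BH-adjusted p = 0.782), and the 95% interval of −0.58 to 1.16 leaves room for a difference in either direction. The pairs of Bgn differed in sign, at 0.54, −0.44 and 0.77, and without EtOH replicate 3 the log2 fold change was 0.00.

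Prelp encodes PRELP, a class II protein with a basic amino terminus that binds heparan sulfate. The gene (ENSMUSG00000041577; chromosome 1, 135806881 to 135817991, minus strand) had 7971, 4026 and 7911 normalized counts in the EtOH replicates and 7227, 3649.7 and 9125 in the TAM replicates. Replicate 2 was the lowest library of each group, and the groups overlapped over most of their range. For Prelp the fit gave a log2 fold change of −0.03 (SE 0.42, BH-adjusted p = 0.986). With the replicate block the 95% interval was −0.49 to 0.43, and the sign turned under several other settings. Of its exon bases, 9.68% are shared with Gm15851 on the other strand, and the strand setting of the counting is not given in the sources used here.

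Fmod encodes fibromodulin, the class II member that competes with lumican for a site on collagen. The gene (ENSMUSG00000041559; chromosome 1, 135933831 to 135944854, plus strand) had 305, 530.4 and 468 normalized counts in the EtOH replicates and 474, 399 and 1000.45 in the TAM replicates. TAM replicate 3 was the highest of the 6 and the other values overlapped. Fmod had a log2 fold change of 0.44 (SE 0.38, 95% interval −0.46 to 1.34, BH-adjusted p = 0.668), and 0.04 without TAM replicate 3.

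Podn encodes podocan, a class V member that binds collagen. The gene (ENSMUSG00000028600; chromosome 4, 107687396 to 107704942, minus strand) was the least abundant of the family per kilobase, with 235, 72.4 and 64.5 normalized counts in the EtOH replicates and 423, 220.3 and 212 in the TAM replicates. EtOH replicate 1 was above TAM replicates 2 and 3, so the groups overlapped, although each TAM library was above the EtOH library of the same number. The means were 124 ± 96.1 and 285 ± 119 (SD, n = 3 each), 2.30-fold higher in TAM. At 1.38, the log2 fold change of Podn had an SE of 0.53 (BH-adjusted p = 0.330), and with the replicate block 0.25 (adjusted p = 0.0827). The pairs gave 0.85, 1.59 and 1.70. Podn was the only member that was higher in TAM in all 3 pairs, as were 18.3% of all genes tested.

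**Figure D2:**
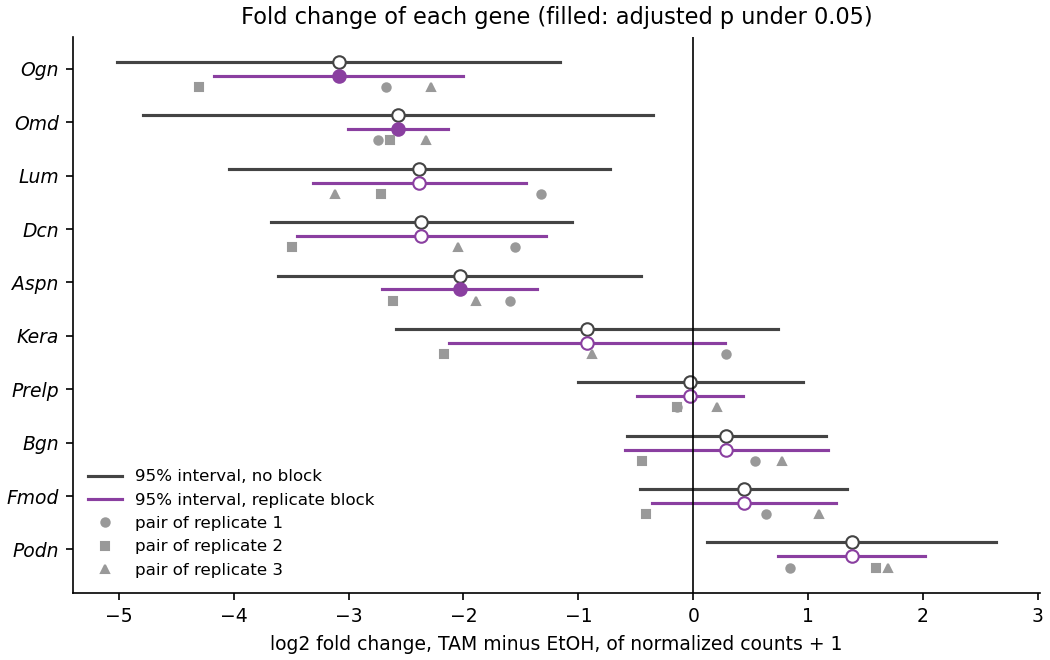
Log2 fold change of each gene, TAM minus EtOH, on the log2(normalized counts + 1) scale, with 95% intervals without (black) and with (purple) the replicate block and the differences within the 3 same-numbered pairs (grey symbols). Filled circles mark an adjusted p under 0.05, reached by Ogn, Omd and Aspn with the block only, and the 3 pairs of Omd lie between −2.74 and −2.32.

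The spread between libraries was wider for the median member than for the median gene. The median SD of the log2 values within a group was 0.68 in EtOH and 1.20 in TAM over the 10 members, and 0.286 and 0.299 over all genes tested. The widest member was Ogn in TAM, with an SD of 1.72, and the narrowest was Bgn in TAM, with 0.23. In TAM replicate 2, 9 of the 10 members had the lowest value of their group, and in EtOH replicate 2, 6 of the 10. The median log2 distance of the members from the other two libraries of the group was −2.003 in TAM replicate 2 and −0.87 in EtOH replicate 2. Acta2, a smooth muscle and myofibroblast marker, had 99588 normalized counts in TAM replicate 2 and 25369 and 32774 in the other TAM libraries. In the EtOH libraries it had 55325, 16500 and 28439, so that in that group replicate 2 was the lowest. The part of this difference in the values of the family was not tested.

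Per kilobase of exon, the order of the family differed between the groups. In EtOH, Dcn was the most abundant member with 45125 ± 8610 (SD, n = 3) normalized counts per kilobase, followed by Ogn with 21999 ± 9152, Bgn with 16179 ± 6164 and Aspn with 14265 ± 7695. Prelp, Omd and Lum stood at 1836 ± 625, 1444 ± 1011 and 1166 ± 696, and Kera, Fmod and Podn at 150.2 ± 79.7, 131 ± 35.2 and 29.4 ± 22.8. Among neighbours in this order the ranges of Dcn and Ogn, Aspn and Prelp, Lum and Kera, and Fmod and Podn did not overlap, and the other 5 neighbouring ranges did. With the length of the longest transcript in place of all exons, Bgn and Ogn changed places.

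In TAM, Bgn led with 18970 ± 3161 (SD, n = 3) normalized counts per kilobase and Dcn followed with 10278 ± 5914. Aspn and Ogn were next, with 3858 ± 2474 and 3502 ± 2837, then Prelp with 1844 ± 769. Bgn was the highest member in all 3 TAM libraries and Dcn in all 3 EtOH libraries. The lower members were Omd with 255 ± 205, Lum with 246 ± 185, Fmod with 189 ± 99.1, Kera with 93.5 ± 61.2 and Podn with 67.7 ± 28.4. Only the ranges of Bgn and Dcn and of Prelp and Omd did not overlap among neighbours in TAM.

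Among the 22148 genes with an exon length, Dcn was at place 8, 11 and 5 per kilobase in the EtOH replicates and 23, 178 and 23 in the TAM replicates. Ogn went from places 16, 44 and 11 to 116, 1325 and 64. Bgn was at 27, 18 and 35 in EtOH and 10, 24 and 14 in TAM, so biglycan was among the 35 most abundant genes per kilobase in every library. The ratio of Dcn to Bgn per kilobase was 2.66, 1.73 and 5.30 in the EtOH replicates and 0.624, 0.208 and 0.750 in the TAM replicates. Decorin transcripts thus exceeded those of biglycan in every EtOH library and were the fewer in every TAM library. The ratio of Fmod to Lum, the pair with a common site on collagen, was 0.0832, 0.320 and 0.0749 in EtOH and 0.324, 1.59 and 1.39 in TAM. The ratio of Omd to Ogn stayed between 0.0274 and 0.0856 in the 6 libraries, without a separation of the groups.

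The 10 genes together took 1.41, 1.22 and 1.79% of the normalized counts in EtOH replicates 1, 2 and 3 and 0.887, 0.461 and 0.875% in the TAM replicates. Every TAM library was below every EtOH library. Bgn made up 23.3, 38.1 and 12.7% of the family's counts in EtOH and 58.9, 79.1 and 48.2% in TAM, and Dcn 33.7, 35.8 and 36.6% in EtOH and 19.96, 8.96 and 19.7% in TAM. Most of the family's counts in the TAM libraries thus came from biglycan alone in replicates 1 and 2. Normalized counts are not divided by length in these shares, and longer transcripts weigh more.

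**Figure D3:**
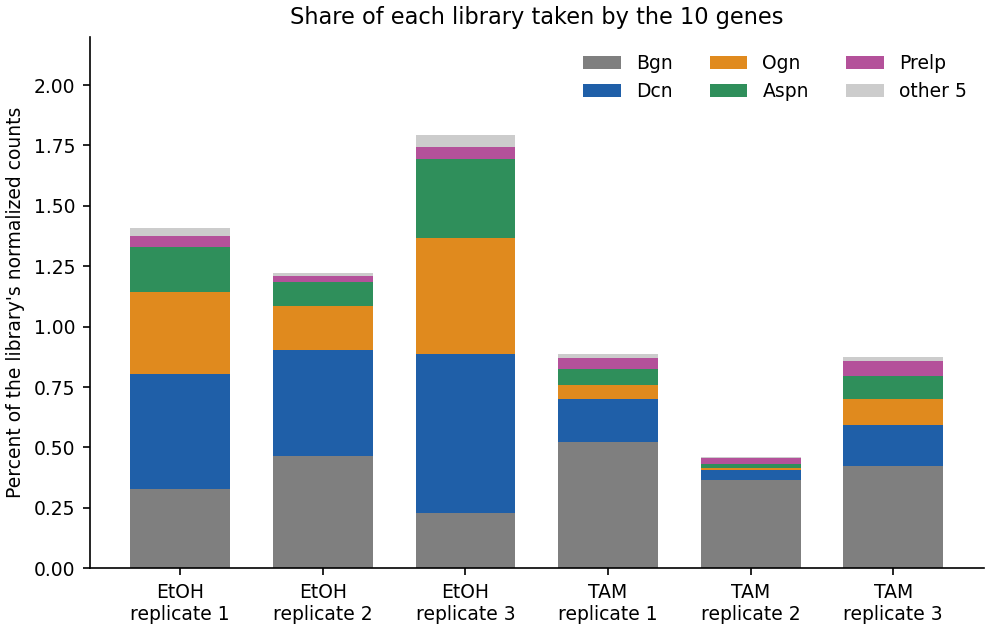
Share of each library's normalized counts taken by the 10 genes, as stacked bars, with Kera, Fmod, Podn, Lum and Omd drawn together as the other 5. The bars reach 1.22 to 1.79% in EtOH and 0.461 to 0.887% in TAM, and the height of the Bgn part overlaps between the groups.

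Of the 10 genes, 8 lie in 3 clusters of the mm9 genome. The chromosome 13 cluster of Aspn, Omd and Ogn spans 80058 bases, and all 3 members had log2 fold changes of −2.03 or below. Ecm2, a related leucine-rich repeat gene just before Aspn, had 672, 299 and 986 normalized counts in the EtOH replicates and 198, 45.2 and 355 in the TAM replicates. Its groups overlapped, and its log2 fold change was −1.98 (SE 0.77, BH-adjusted p = 0.335, and 0.0489 with the replicate block). Cenpp, which encodes a centromere protein, covers the cluster from the opposite strand, shares 0 exon bases with the members and had a log2 fold change of −0.70 (BH-adjusted p = 0.601). Nol8 and Iars, the next genes after Ogn, had 0.28 and −0.34 (BH-adjusted p = 0.661 and 0.692). Without TAM replicate 2 the log2 fold change of Ecm2 was −1.13, and with the GC correction described below its blocked call was lost (BH-adjusted p = 0.0604). Nol8 and Iars were called in neither fit.

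The chromosome 10 cluster of Dcn, Lum and Kera spans 134078 bases, with Epyc after it, another family member whose 6 values of 0.82 to 8.20 normalized counts did not pass the filter. Btg1, further before Dcn, had 2440, 7096 and 3338 normalized counts in the EtOH replicates and 1274, 1584 and 2282 in the TAM replicates. Its groups did not overlap, and its log2 fold change was −1.22 (BH-adjusted p = 0.278, and 0.177 with the block). Eea1, before Btg1, had −0.10 (BH-adjusted p = 0.941). The chromosome 1 cluster of Prelp and Fmod spans 137974 bases. Optc, which encodes opticin and lies just before Prelp, had a log2 fold change of 0.76 (BH-adjusted p = 0.465). Atp2b4, a calcium pump gene further before it, had 638, 506 and 610.2 normalized counts in the EtOH replicates and 1545, 1721 and 1571 in the TAM replicates. Its log2 fold change of 1.47 (SE 0.17, BH-adjusted p = 0.0374) was past the threshold without the block, unlike any member of the family. Btg2, after Fmod, had 0.63 (BH-adjusted p = 0.593). Bgn on chromosome X and Podn on chromosome 4 lie apart from the others.

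**Figure D4:**
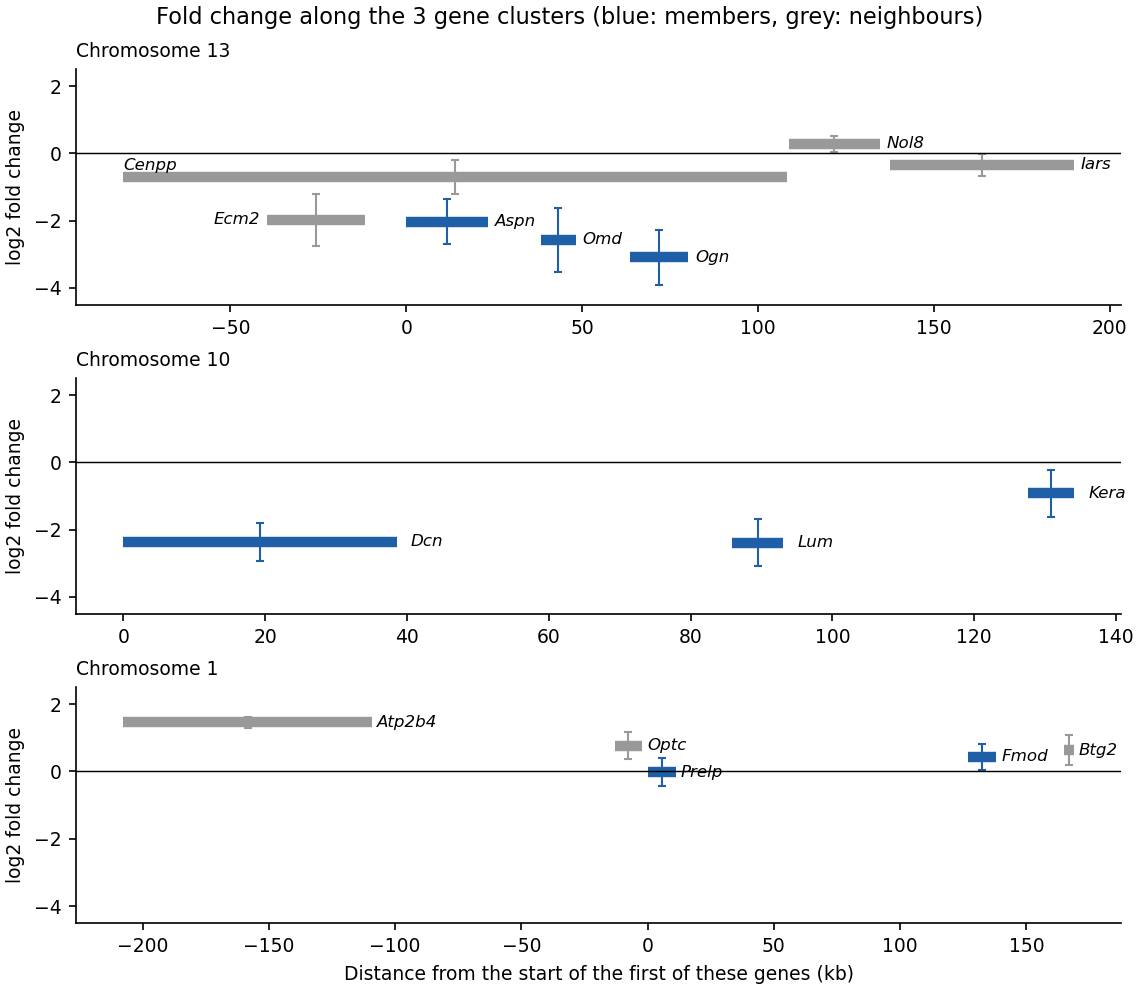
Log2 fold change (TAM minus EtOH) of the genes of the 3 clusters, drawn as bars from gene start to gene end in kilobases from the start of the first member, with the SE as a vertical line. The genes chosen as members are blue and tested neighbours, with Ecm2 and Optc among them, grey. Btg1 and Eea1, far before Dcn, are not drawn. Aspn, Omd, Ogn and Ecm2 lie between −1.98 and −3.09, Cenpp at −0.70, and Nol8 and Iars at 0.28 and −0.34.

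The members also differed in base composition, which the choice of the genes did not use. The longest coding transcripts of Aspn, Omd, Ogn, Kera, Lum and Dcn held 34.4 to 42.4% GC, and those of Bgn, Fmod, Prelp and Podn 52.3 to 57.2%. The median over the 11870 tested genes with a transcript was 50.3%. The 6 members under 45% GC, a limit set after seeing the data, were the 6 with the lowest log2 fold changes. Kera was the highest of these at −0.92, and at −0.10 without TAM replicate 2. Over all tested genes, the 2688 under 45% had a median log2 fold change of −0.08 and the others −0.02. After a correction of each library for GC content, added after seeing the data, the log2 fold changes were −2.94 for Ogn, −2.40 for Omd, −2.30 for Lum, −2.29 for Dcn, −1.86 for Aspn and 1.42 for Podn. With the GC correction and the replicate block together, Omd kept its call (BH-adjusted p = 0.0184), and Aspn and Ogn lost theirs (0.0519 and 0.0551).

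**Figure D5:**
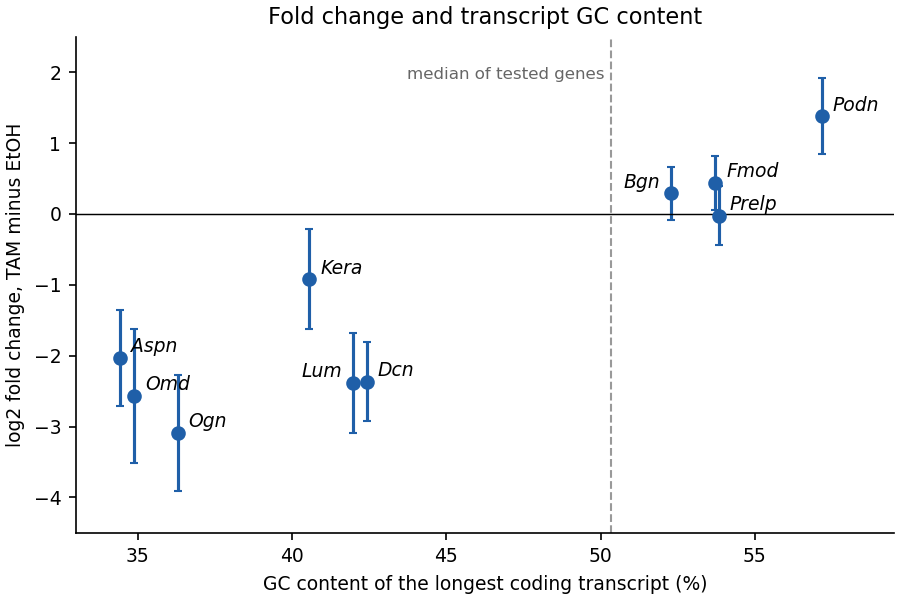
Log2 fold change (TAM minus EtOH, with SE) of each gene against the GC content of its longest coding transcript in mm9, with the median of all tested genes at 50.3% as a dashed line. The 6 genes between 34.4 and 42.4% GC lie between −0.92 and −3.09, and the 4 genes between 52.3 and 57.2% lie between −0.03 and 1.38.

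A like order was seen before the start sites. RefSeq promoter windows from 250 bases before to 50 bases after the start were matched for 8 of the 10 genes, Dcn and Lum being the others. Their GC content was 31% for Aspn, 37.67% for Omd, 41% for Kera and 42.33% for Ogn, 51% for Fmod, 55.33% for Prelp and 63.67% for Bgn, and 77 and 63% for the 2 starts of Podn. The median over the 32851 windows of the table was 52.67%. Of the 9 windows of members, 2 (Aspn and Ogn) held TATAAA, 4 held CCAAT, 2 (Bgn and a start of Podn) held GGGCGG and 0 held TGANTCA, the AP-1 site. These letters, searched on both strands, were in 13.62, 37.41, 35.66 and 7.808% of all windows.

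Other genes of the pathway were looked at in 8 lists compiled by hand. Without the replicate block 0 genes of these lists were called, and with it 8 were called, 4 higher and 4 lower, where 0.244 and 1.62% of all genes were called in these fits. Of the lower genes, Kdr and Spock3 passed the filter only through the EtOH libraries. The other genes of the family formed a list of 8, of which 5 passed the filter. Ecm2, described above, was lower with the block. Optc, Podnl1 and Tsku, which encodes tsukushi, had log2 fold changes of 0.76, 0.93 and 0.32, and Chadl −0.09, with BH-adjusted p between 0.465 and 0.951. Epyc, Nyx and Chad did not pass the filter. Of the exon bases of Chadl, 20.6% are shared with L3mbtl2 on the other strand, and 4.42% of the Ecm2 transcript matched other places of the genome.

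The glycosaminoglycan chains of these proteins are built by enzymes that were looked at in 3 lists. Of the 14 tested genes of chondroitin and dermatan sulfate synthesis, 1 was higher with the block and 0 were lower, with a median log2 fold change of 0.39. This was Csgalnact1, an enzyme that starts the chondroitin chain, with 794, 446 and 310 normalized counts in the EtOH replicates and 3503, 1711 and 2534 in the TAM replicates. The groups did not overlap, and the log2 fold change was 2.37 (SE 0.40, BH-adjusted p = 0.0900, and 0.0308 with the block). At an unadjusted p under 0.05 without the block, 5 genes of this list were higher and 1 was lower, against 6.67 and 6.7% of all genes. Among the 7 genes of the linker between protein and chain, 0 were called in either fit, and at an unadjusted p under 0.05 without the block 1 was higher. Acpl2, a xylose phosphatase, had a log2 fold change of 1.19 and Xylt1, the xylosyltransferase that adds the first sugar, 1.53 (BH-adjusted p = 0.213 and 0.396).

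Keratan sulfate synthesis had 6 tested rows, with 0 called in either fit and a median log2 fold change of 0.15. At an unadjusted p under 0.05 without the block 1 row, that of Chst1, was higher, against 6.67% of all genes. Chst1, the sulfotransferase of keratan sulfate, had 31.2, 9.48 and 11.4 normalized counts in the EtOH replicates and 53.9, 128 and 64.0 in the TAM replicates. Its values did not overlap, and its log2 fold change was 2.26 (SE 0.56, BH-adjusted p = 0.182). In EtOH only replicate 1 reached the 16.2 normalized counts of the filter, so Chst1 was tested because of its TAM values. The other named row, labelled B3gnt2 (ENSMUSG00000051355), had −0.39 (BH-adjusted p = 0.383). It shares 29.2% of its exon bases with another row of the same symbol. By the mm9 annotation that other row (ENSMUSG00000051650) is B3gnt2, the enzyme that extends the chain, and the named row is its neighbour Commd1. The value of −0.39 is therefore not one of the enzyme, although it counts among the 6 tested rows and in their median.

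Proteases that cut the core proteins formed a list with 10 tested genes, of which 2 were higher with the block. Mmp13, a collagenase, had 41.1, 80.1 and 0.74 normalized counts in the EtOH replicates and 1042, 1045 and 186 in the TAM replicates. Mmp3, stromelysin-1, had 63.8, 376 and 125 in EtOH and 1507, 3255 and 1099 in TAM. Both were higher in every TAM library than in any EtOH library. Their log2 fold changes were 5.02 and 3.59 (BH-adjusted p = 0.221 and 0.103, and 0.0359 and 0.0237 with the block). Without EtOH replicate 3, whose value was the lowest, the log2 fold change of Mmp13 was 3.33, and with a pseudocount of 10 in place of 1 it was 4.03. Copies elsewhere in the genome matched 47% of the Mmp3 transcript, so its counts may hold reads of other loci. The median of the list was 0.12.

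The fibrillar collagens that the family binds had 8 tested genes with a median log2 fold change of −0.71, of which 6 had a negative value and 1 was lower with the block. Col5a3, a chain of collagen V, had 1984, 3554 and 2271 normalized counts in the EtOH replicates and 649, 1401 and 782 in the TAM replicates, without overlap. The log2 fold change was −1.50 (SE 0.34, BH-adjusted p = 0.157, and 0.0291 with the block). The growth factors and receptors that decorin and biglycan bind had 15 tested genes, a median of 0.13 and 1 gene lower with the block. This was Kdr, a VEGF receptor, with 205, 68.7 and 116 normalized counts in EtOH and 4.84, 7.53 and 14 in TAM, values so low in TAM that they stand for few reads. All TAM values of Kdr were under the 16.2 normalized counts of the filter, so it was tested only because of its EtOH values. Its log2 fold change was −3.71 (BH-adjusted p = 0.0608, 0.0488 with the block and 0.0505 with the block and the GC correction).

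Among 18 tested genes of other proteoglycans, with a median log2 fold change of −0.12, 1 was higher and 1 was lower with the block. Gpc1, which encodes the cell surface proteoglycan glypican-1, had 1933, 1790.5 and 1025 normalized counts in the EtOH replicates and 10979, 5693 and 5025 in the TAM replicates. It was higher in every TAM library, with a log2 fold change of 2.16 (SE 0.37, BH-adjusted p = 0.0915, and 0.0274 with the block). Spock3, which encodes the secreted testican-3, had 90.9, 98.3 and 236 normalized counts in EtOH and 2.62, 6.69 and 13.3 in TAM. Its log2 fold change was −4.14 (SE 0.62, BH-adjusted p = 0.0628, and 0.0212 with the block). Every TAM value of Spock3 was under the 16.2 normalized counts of the filter, so it was tested only because of its EtOH values.

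The summed levels of cell type markers were compared beside the family. The 10 fibroblast markers summed to 1472690 to 1578590 normalized counts in the EtOH libraries and 702974 to 1114730 in the TAM libraries, and 0 of them were called in either fit. Most of each sum came from the collagen genes Col1a1, Col1a2 and Col3a1, so it says little of the other markers. Thy1 went the other way, with 571 to 2165 in EtOH and 2246 to 4122 in TAM, and Vim and Pdgfrb overlapped between the groups. The tenocyte markers summed to 1826 to 3115 in EtOH and 215 to 1107 in TAM, mostly from Tnmd, the tendon gene tenomodulin, with Scx and Mkx under 1 c.p.m. on average. Smooth muscle and pericyte markers summed to 17134 to 56424 in EtOH and 27023 to 107873 in TAM, ranges that overlap, and most of each sum came from Acta2. Myh11, with 94.4 to 227 in EtOH and 479 to 1568 in TAM, was higher in every TAM library. So was Cnn1, with 523 to 856 in EtOH and 1080 to 6645 in TAM. Rgs5 overlapped between the groups and Des was under 1 c.p.m. on average. Of the 4 tested markers of this list 0 were called in either fit. Endothelial markers summed to 85.9 to 241 in EtOH and 15.7 to 35.1 in TAM. Of the 5 markers 1, Kdr, passed the filter, only through the EtOH libraries, and was lower with the block as given above. Pecam1, Cdh5, Tek and Emcn were under 1 c.p.m. on average. The sums of the keratinocyte, leukocyte, chondrocyte, osteoblast and adipocyte lists were at most 466 normalized counts in any library. In bulk libraries, fewer cells of a type and less RNA per cell cannot be told apart, and the part of these markers in the values of the family was not tested.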

How the data were processed

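Poly(A) RNA of MSFs was sequenced in 6 libraries. TopHat mapping to mm9, htseq-count on RefSeq genes and edgeR with TMM normalization were the authors' steps, with tool versions not given in the sources used here. The deposited signal holds normalized counts of each gene in each library, which are not whole numbers, so edgeR was not run here. Read depth per library is unknown, and no counting intervals were computed.

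The 10 members, the lists and the tests were chosen with earlier results of these data known. Differences in log2(normalized counts + 1) were tested two-sided with limma 3.58.1 in R 4.3.3, with an intensity trend and no further normalization, over the 11877 genes with at least 1 c.p.m. (16.2 normalized counts, from the mean library sum) in at least 3 of 6 libraries. Adjusted p-values (Benjamini-Hochberg) under 0.05 were called. The added 1 understates changes of low genes.

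Pairing comes from the replicate numbers in the labels. Deviations from group means correlated across genes with r = 0.241, 0.287 and 0.422 for replicates 1, 2 and 3, and between −0.31 and 0.0374 for different numbers, so blocked values are given where they change a call.

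Named genes were all members, the tested genes of the other family members' list, and in each other list up to 2 called genes with the largest change or, where none was called, the 2 with the smallest p. Positions, exon lengths, overlaps and transcript GC come from the mm9 annotation (GENCODE vM1), and promoters from RefSeq (GRCm38.p6). Copies of transcripts were searched in the mm9 genome with BLAST 2.17.0 (identity of 95% or higher, length of 100 bases or longer), and no member matched elsewhere. Python 3.11.15, pandas 2.3.3 and matplotlib 3.10.9 were used. Alternatives were other pseudocounts, filters, scalings, library weights, the block, leaving out libraries and, added after seeing the data, leaving out replicate 2 of both groups and a GC correction.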

Additional observations from a re-analysis of the deposited data

How the results depend on the processing

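All 6 libraries entered each value above unless stated, and 29 genes were called. The directions of Ogn, Omd, Lum, Dcn, Aspn, Kera, Bgn, Fmod and Podn held under every alternative run. With any 1 library left out the log2 fold changes ranged from −3.78 to −2.12 for Ogn, −3.41 to −1.70 for Omd, −2.98 to −1.71 for Lum, −2.72 to −1.71 for Dcn, −2.51 to −1.32 for Aspn, −1.34 to −0.10 for Kera, 0.00 to 0.57 for Bgn, 0.04 to 0.70 for Fmod and 1.04 to 1.97 for Podn, with 0 members called each time and 0 to 15 genes. Prelp turned to 0.0867 with equal library sums, 0.14 with library weights, 0.0324 without replicate 2 of both groups, with or without the block, and 0.00127 with the GC correction, with or without the block, and ranged from −0.35 to 0.36 with 1 library left out. Chadl turned from −0.09 to 0.0185 with equal sums and 0.0264 with weights, and ranged from −0.39 to 0.18 with 1 library left out.

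With the replicate block 192 genes, 3 members (Aspn −2.03, Ogn −3.09 and Omd −2.57) and 8 list genes were called, and it changed no other member's call. Library weights gave 742 genes, 3 members (Dcn −1.92, Ogn −2.32 and Lum −2.53) and 13 list genes. Without replicate 2 of both groups 9 genes and 0 members were called. With the block added, which leaves 1 residual degree of freedom per gene, there were 855 genes, 18 list genes and 7 members (Dcn −1.80, Aspn −1.74, Ogn −2.48, Podn 1.27, Lum −2.22, Fmod 0.87 and Omd −2.53). The GC correction with the block gave 177 genes, 6 list genes and 1 member (Omd −2.40). No filter gave 17 genes, at least 10 normalized counts in every library 18, and quantile normalization 1 list gene. Equal library sums moved the median of all genes from −0.03 to 0.08. Apart from what their construction shows, the causes were not tested.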
